A study of Mus musculus with 2 samples.

Results

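The D-type cyclins, their kinase partners CDK4 and CDK6, and the RB (retinoblastoma) proteins form the switch that starts DNA replication, and they are followed here through 8 mouse genes: Ccnd1, Ccnd2, Ccnd3, Cdk4, Cdk6, Rb1, Rbl1 and Rbl2. The genes were chosen by name, 8 of 23233 genes named in the files and 8 of the 13795 that reached 1 FPKM in at least 1 library and could be compared. FPKM values count fragments per length of transcript and per size of the library, so levels can be set side by side between genes. RNA selected for poly(A) came from spermatogonial progenitor cells, the germ cells that keep spermatogenesis going, taken from C57BL/6 testes at 8 days after birth. There was 1 Dnmt3l knockout library and 1 wild-type library, both read as pairs of 100 nt. Dnmt3l encodes a partner of the de novo DNA methyltransferases that has no catalytic activity of its own, and the title of the series asks about its role in the quiescence of these cells. The labels give neither the knockout allele, nor how the cells were isolated, nor how many mice went into a library.

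Growth signals raise the D cyclins, which bind CDK4 or CDK6 and bring the kinase to the RB proteins. Phosphorylated RB proteins let go of the E2F transcription factors, and genes for DNA replication are then transcribed; INK4 and CIP/KIP inhibitors hold the kinases back. RB, the product of Rb1, mainly holds activating E2Fs, while its relatives p107 (Rbl1) and p130 (Rbl2) mainly hold repressive E2Fs, and p130 is typical of resting cells. In the mouse testis, cyclin D2 is known from spermatogonia that begin to differentiate, and cyclin D3 is also made by Sertoli and Leydig cells.

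With 1 library per genotype, no difference below has a replicate check and no test was made. The values describe these libraries. Dnmt3l itself was listed at 0 FPKM in the knockout library and at 1.67 FPKM (bounds 0.79 to 2.68) in the wild-type library. Differences are given as log2((knockout FPKM + 1)/(wild-type FPKM + 1)), which understates those of low genes. Counts of 2-fold differences use this scale unless another is named. Read counts are not in the files, so the depth is unknown; the coverage that went with 1 FPKM had a median of 3.45 in the knockout and 3.13 in the wild-type library. Where both libraries reached 1 FPKM, the gene in the middle of the order stood at 0.21 on this scale; it is called the median gene, and relative ratios have its value subtracted.  All 17 markers of undifferentiated spermatogonia and all 9 of differentiating spermatogonia were above 0 in both libraries. They summed to 469.4 FPKM in the knockout and 437.5 FPKM in the wild-type library for the undifferentiated and to 248.5 FPKM in the knockout and 318.5 FPKM in the wild-type library for the differentiating set. Markers of other testis cells were present too and were more abundant in the knockout library: the 16 Sertoli markers summed to 1330 FPKM in the knockout and 601.2 FPKM in the wild-type library. The 13 macrophage markers summed to 1150 FPKM in the knockout and 588.9 FPKM in the wild-type library, and the 10 endothelial markers to 142.2 FPKM in the knockout and 71.1 FPKM in the wild-type library. The 7 Leydig markers summed to 138.1 FPKM in the knockout and 62.3 FPKM in the wild-type library, and the 8 peritubular markers to 502.7 FPKM in the knockout and 324.6 FPKM in the wild-type library. At least 2-fold higher in the knockout library were 7 of the 16 Sertoli, 6 of the 13 macrophage, 4 of the 10 endothelial, 2 of the 6 Leydig and 0 of the 8 peritubular markers compared, beside 7.69% of all genes compared; 1 macrophage marker was at least 2-fold lower, beside 3.51%. Of the 17 undifferentiated markers 1 was at least 2-fold higher and 1 at least 2-fold lower in the knockout library, beside the same shares of all genes. Of the 9 differentiating markers 0 were at least 2-fold higher and 1 was at least 2-fold lower. The sums of these sets therefore do not show how single markers differed. Star was at 0 in both libraries, Tsx at 0 in the wild-type library, and Cd68 at 0 in the knockout library. In such bulk samples, fewer cells of a type and less RNA per cell cannot be told apart.

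Taken as gene sums, Ccnd3, Cdk4 and Rbl2 were listed higher in the knockout library and Ccnd1, Ccnd2, Cdk6, Rb1 and Rbl1 lower; the sign turned for Cdk4 with total scaling or length adjustment and for Rbl2 with RefSeq transcripts alone or exon levels. The bounds of a gene are the deposited bounds summed over its transcripts and models. They cover the estimate within a library and not the spread between animals. For genes with more than 1 transcript or model, such sums are not an interval estimated for the gene. The bounds were apart for all of the 8 genes except Rbl1. Thus 3 of the 8 genes were higher with bounds apart, beside 35.4% of all genes compared, and 4 were lower with bounds apart, beside 16.2%. On the (FPKM + 1) scale none of the 8 differed by 2-fold or more, beside 11.2% of all genes compared, with 7.69% higher and 3.51% lower. At that background a count of 0 among 8 genes is not a result about them. It also rests on the added 1: with 0.1 added instead, Cdk6 was past 2-fold, at -1.19. Relative to the median gene the ratios ran down to -1.17 for Cdk6 and up to 0.43 for Ccnd3 and Rbl2, with Cdk4 at 0.01.

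**Figure D1:**
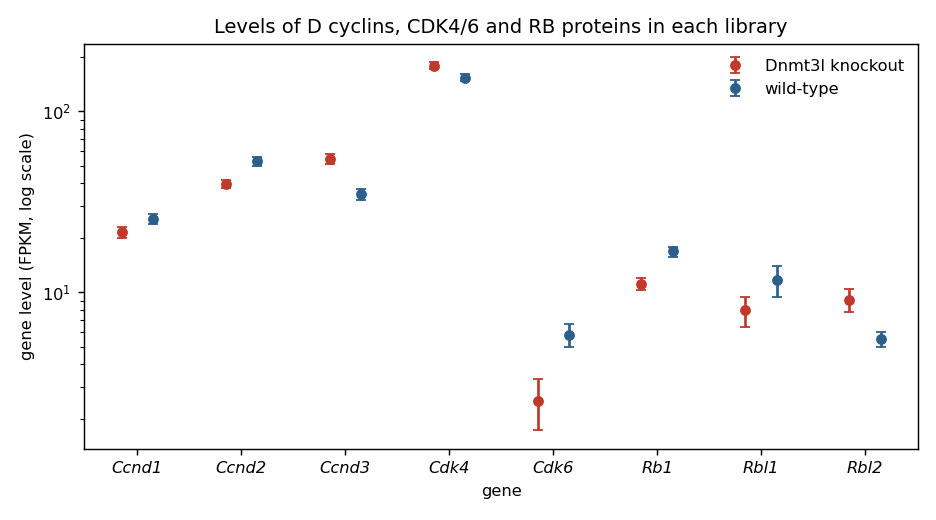
Gene level in FPKM, on a log axis, of the 8 genes in the knockout library (red, left of each pair) and the wild-type library (blue, right); points are the summed FPKM of a gene, and bars are the summed lower and upper bounds deposited with it. Cdk4 is the most abundant of the genes in both libraries and Cdk6 the least abundant in the knockout library; the bars of Rbl1 touch, those of the other genes do not.

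Among the D cyclins the summed level, as deposited, was alike in the 2 libraries while the order of the genes was not. The 3 genes together had 116.0 FPKM in the knockout and 113.2 FPKM in the wild-type library. Ccnd3 led in the knockout library with 47.1% of that sum, against 30.7% in the wild-type library. Ccnd2 made up 34.3% in the knockout library and led in the wild-type library with 46.8%. Ccnd1 was the lowest of the 3 in both, at 18.6% in the knockout and 22.5% in the wild-type library. When the level was averaged over the RefSeq exon bases instead of summed over transcripts, Ccnd3 again led in the knockout library (44.4%) and Ccnd2 in the wild-type library (48.4%). With RefSeq transcripts alone, Ccnd3 led in both libraries, at 54.6 FPKM in the knockout and 34.7 FPKM in the wild-type library. Ccnd2 was then the lowest in both, at 5.01 FPKM in the knockout and 22.3 FPKM in the wild-type library. The change of order therefore depends on counting the assembled Ccnd2 models.

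All 3 D cyclins carry the same short motif near the amino end, Leu-x-Cys-x-Glu, through which they bind the pocket of the RB proteins. The first 36 coding bases of each are shown, with the 5 codons of the motif in capitals. They are from GENCODE M21 transcripts on GRCm38, at chr7:144939658-144939693 (minus strand), chr6:127150738-127150773 (minus) and chr17:47593655-47593690 (plus).
Ccnd1: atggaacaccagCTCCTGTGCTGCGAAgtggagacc
Ccnd2: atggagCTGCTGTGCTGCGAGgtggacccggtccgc
Ccnd3: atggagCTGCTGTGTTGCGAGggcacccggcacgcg
The motif lies in the first coding exon of each gene, and in Ccnd2 that exon is the one in which the models of the libraries part.

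Ccnd1 (chr7:144929931-144939925, minus strand, mm10) encodes cyclin D1, the D cyclin most directly raised by growth factors. It was at 21.6 FPKM (bounds 20.1 to 23.0) in the knockout library and 25.5 FPKM (bounds 23.7 to 27.1) in the wild-type library, a log2 ratio of -0.23 and a relative one of -0.44. All of it was in the RefSeq transcript NM_007631, with 5 exons, so every exon has the same ratio. Part of Ccnd1 is also held by the neighbouring gene LTO1 in GENCODE M21: 24.9% of the 100-base windows of Ccnd1-201 occur there. In the wild-type library alone, a 5-exon model of 6.10 FPKM on the opposite strand ended beyond the 3′ end of Ccnd1 without sharing an exon base.

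Ccnd2 (chr6:127125709-127151048, minus strand) encodes cyclin D2. It was at 39.8 FPKM (bounds 37.9 to 41.7) in the knockout library and 53.0 FPKM (bounds 49.9 to 56.0) in the wild-type library, a log2 ratio of -0.40. The gene sum hides a larger difference in the 5′ structure. The RefSeq transcript NM_009829, whose exon 1 is unbroken, was at 5.01 FPKM (bounds 4.38 to 5.63) in the knockout and 22.3 FPKM (bounds 20.99 to 23.5) in the wild-type library. That was 12.6% of the gene in the knockout and 42.0% in the wild-type library. In its place the knockout library had a model with an upstream exon of 141 nt (chr6:127151371-127151511) joined over an intron of 570 nt to the inside of exon 1. Models with this exon carried 34.8 FPKM (bounds 33.5 to 36.1), or 87.4% of the gene, in the knockout library and 6.46 FPKM (bounds 5.83 to 7.09), or 12.2%, in the wild-type library. The 570-nt intron was assembled from both libraries and is listed neither in the RefSeq transcripts of the files nor in GENCODE M21. Further upstream these models part. An intron of 548 nt leads to the 141-nt exon in the knockout library alone, and one of 650 nt in the wild-type library alone. The remaining 24.2 FPKM (45.8%) of the wild-type library were in a model that splices 66 nt out of exon 1, an intron that GENCODE M21 lists and that no knockout model held.

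These splices join exon 1 at the same base, 27 nt upstream of the start codon, so that all Ccnd2 models keep the annotated start codon and the RB-binding motif printed above. The part of exon 1 before that base set the difference in level over the exon: averaged over exon 1, Ccnd2 was at 21.3 FPKM in the knockout and 46.1 FPKM in the wild-type library, a log2 ratio of -1.08. Exons 2 to 5 each stood at the gene sum. A drop of at least 25 points in the share of a gene held by RefSeq transcripts was listed for 20.7% of the 9155 genes that reached 5 FPKM in each library, and a gain of that size for 11.9%, so a shift such as that of Ccnd2 was common between these libraries. Of the members that reached 5 FPKM in each, Ccnd2 and Rbl2 had such a drop and none such a gain. How the assembly of each library divided the reads between these models was not tested, nor was the part of the lower sum of differentiating spermatogonia markers in the value of Ccnd2.

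Ccnd3 (chr17:47505051-47599688, plus strand) encodes cyclin D3. It was at 54.6 FPKM (bounds 51.4 to 58.0) in the knockout library and 34.7 FPKM (bounds 32.2 to 37.4) in the wild-type library, a log2 ratio of 0.64 and a relative one of 0.43. A ratio this high was above that of 80.3% of the genes compared. All of the signal lay in NM_007632, which starts at the downstream start site, with the motif in its first exon. The transcripts NM_001081635 and NM_001081636, which start at the upstream site, were at 0 in both libraries, with upper bounds of at most 0.0592 FPKM in the knockout and 0.0977 FPKM in the wild-type library. The last exon shares 358 bases with Bysl on the opposite strand, a gene at 19.4 FPKM in the knockout and 17.5 FPKM in the wild-type library, and nothing in the library protocol records the strand of a fragment. The Sertoli and Leydig marker sums, from cell types that also make cyclin D3, were higher in the knockout library as given above. Clu, a Sertoli marker, was at 420.2 FPKM in the knockout and 179.5 FPKM in the wild-type library, and Insl3, a Leydig hormone gene, at 58.5 FPKM in the knockout and 22.1 FPKM in the wild-type library. The part of these cells in the value of Ccnd3 was not tested.

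The windows of 250 bases before each Ccnd3 start (RefSeq, GRCm38.p6) are shown because only the transcript from the downstream site was above 0. The upstream window is chr17:47504801-47505050 and the downstream window chr17:47593217-47593466, both on the plus strand, and no base is in capitals because none of the E2F motifs described with Rbl1 below was found in them.
Ccnd3 upstream start: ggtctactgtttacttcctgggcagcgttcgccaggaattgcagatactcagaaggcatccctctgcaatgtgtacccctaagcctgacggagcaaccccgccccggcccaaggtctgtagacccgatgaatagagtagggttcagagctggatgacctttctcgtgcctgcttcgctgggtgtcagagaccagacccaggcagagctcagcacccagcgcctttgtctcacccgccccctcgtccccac
Ccnd3 downstream start: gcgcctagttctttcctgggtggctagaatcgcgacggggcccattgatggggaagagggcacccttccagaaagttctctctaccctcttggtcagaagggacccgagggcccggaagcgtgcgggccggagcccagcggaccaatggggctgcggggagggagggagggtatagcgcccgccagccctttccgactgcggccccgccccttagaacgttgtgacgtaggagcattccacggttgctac
The upstream window holds 11 CpG dinucleotides and the window before the start of NM_007632 holds 19, where the median over 32851 such windows of all genes was 6. CpG is the dinucleotide at which DNA methyltransferases act, and methylation was not measured here.

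**Figure D2:**
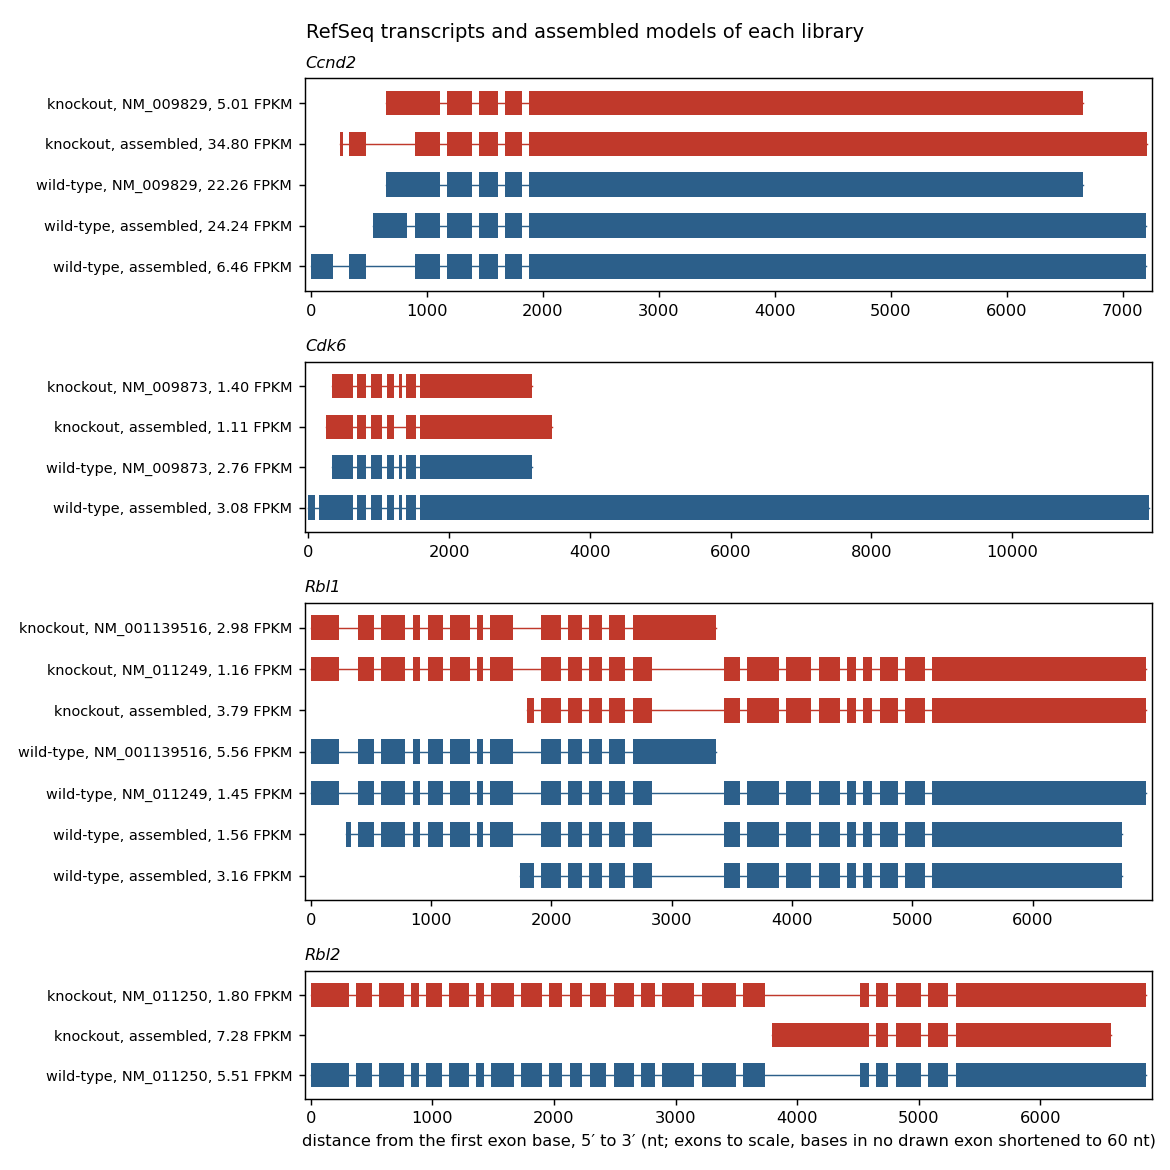
Exons (boxes) of the RefSeq transcripts and assembled models of Ccnd2, Cdk6, Rbl1 and Rbl2 above 0 FPKM, knockout library in red above wild-type library in blue, with their FPKM; the x axis is distance in nt from the first exon base, and bases in no drawn exon are shortened. The knockout Ccnd2 model of 34.8 FPKM begins with the upstream exons, the knockout Cdk6 model of 1.11 FPKM skips exon 5, and the knockout Rbl2 model of 7.28 FPKM holds only the last 5 exons.

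Of the kinases, Cdk4 lay at the median gene and Cdk6 was lower in the knockout library. Cdk4 (chr10:127063603-127067282, plus strand) was at 177.9 FPKM (bounds 170.7 to 186.3) in the knockout library and 153.0 FPKM (bounds 147.0 to 160.8) in the wild-type library. Its log2 ratio of 0.22 became 0.01 relative to the median gene and -0.20 after the median of genes of like length was removed, so no direction is given for it. Cdk4 was more abundant than 97.2% of the genes compared in the knockout and 97.6% in the wild-type library. It has a single RefSeq transcript, NM_009870, and no assembled model was added to it. Its GENCODE transcript Cdk4-201 runs on into Tspan31 on the opposite strand, and 27.7% of its 100-base windows occur in that gene, though NM_009870 stops short of it.

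Cdk6 (chr5:3344312-3522225, plus strand) was at 2.503 FPKM (bounds 1.72 to 3.31) in the knockout library and 5.84 FPKM (bounds 4.97 to 6.70) in the wild-type library. Its log2 ratio of -0.96 was the lowest of the 8 genes and lay above that of 3.73% of the genes compared; relative to the median gene, at -1.17, it was past 2-fold. Cdk4 exceeded Cdk6 by 71.1-fold in the knockout and 26.2-fold in the wild-type library. Both libraries listed NM_009873, at 1.40 FPKM (bounds 0.978 to 1.83) in the knockout and 2.76 FPKM (bounds 2.15 to 3.37) in the wild-type library, and each added 1 model of its own. The wild-type model, at 3.08 FPKM, had 8 exons and 11526 nt, with a last exon that ran on far past the RefSeq end. The knockout model ended much nearer to the RefSeq end. Further on, the knockout library had a separate model of 1111 nt without a strand (0.902 FPKM), which was not counted with the gene.

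The knockout model, at 1.11 FPKM (bounds 0.746 to 1.47), left out exon 5 and held the other 6 RefSeq exons. It made up 44.2% of the Cdk6 level of the knockout library, and no model of the wild-type library left the exon out. The level over exon 5 was therefore 1.40 FPKM in the knockout and 5.84 FPKM in the wild-type library, a log2 ratio of -1.51. Exon 5 (chr5:3515454-3515504, plus strand, GRCm38) has 51 nt, a multiple of 3, and lies inside the coding sequence, so a transcript without it keeps the reading frame. It is shown in capitals with 15 bases of the exon on each side, from GENCODE M21 transcript Cdk6-201.
Cdk6 exon 5: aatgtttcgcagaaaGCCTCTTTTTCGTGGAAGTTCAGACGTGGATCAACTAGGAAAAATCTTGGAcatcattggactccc
The intron that joins exon 4 to exon 6, of 46130 nt, is listed neither in the RefSeq transcripts of the files nor in GENCODE M21. The levels behind it are low, and the bounds of the model with the exon and of the model without it overlap in the knockout library.

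**Figure D3:**
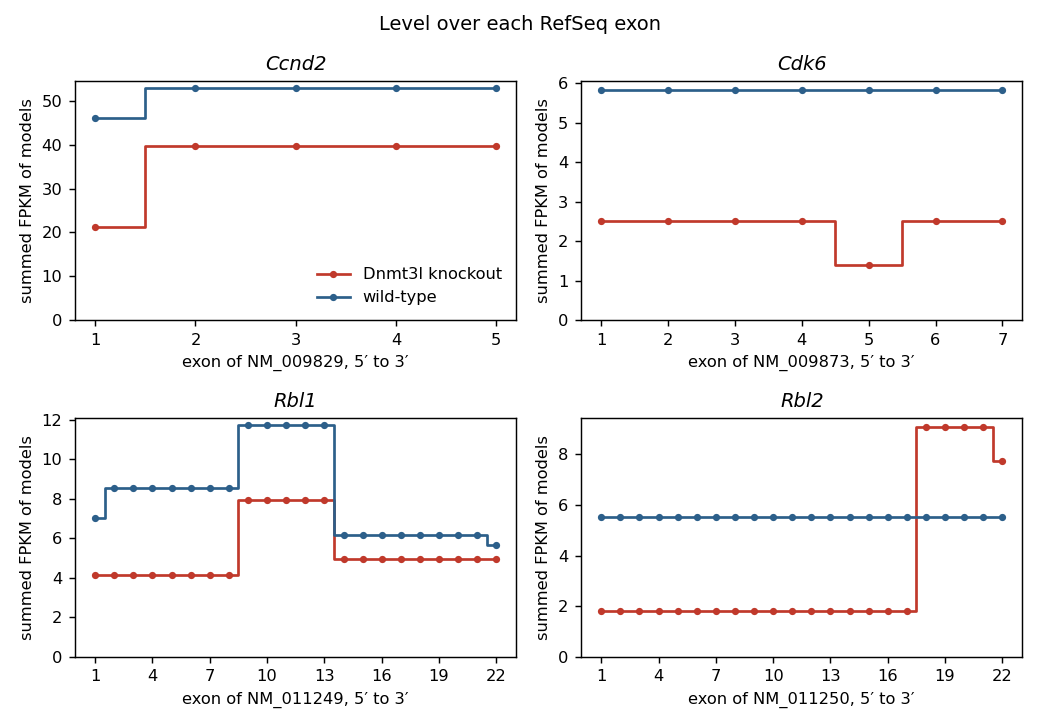
Level over each RefSeq exon, as the summed FPKM of all transcripts and models of the gene averaged over the bases of the exon, against the exon number from 5′ to 3′, for the knockout library (red) and the wild-type library (blue). The lines are parallel over most of Ccnd2 and Cdk6 apart from exon 1 and exon 5, approach each other towards the 3′ end of Rbl1, and cross between exons 17 and 18 of Rbl2.

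The RB proteins summed to 28.2 FPKM in the knockout and 34.0 FPKM in the wild-type library, with Rb1 the most abundant in both. Rb1 (chr14:73195502-73325791, minus strand) encodes RB itself. It was at 11.2 FPKM (bounds 10.3 to 12.0) in the knockout library and 16.8 FPKM (bounds 15.7 to 17.9) in the wild-type library, a log2 ratio of -0.55 and a relative one of -0.75. All of it was in NM_009029, with 27 exons, so that all exons had the same ratio, which lay above that of 9.92% of the genes compared. Lpar6, a receptor gene inside an Rb1 intron on the other strand, was listed in 2 identical entries of 1.30 FPKM in the knockout and 0.957 FPKM in the wild-type library and shares no exon base with Rb1.

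Rbl1 (chr2:157145894-157204534, minus strand) encodes p107, which is itself an E2F target. It was at 7.93 FPKM (bounds 6.46 to 9.44) in the knockout library and 11.7 FPKM (bounds 9.44 to 13.9) in the wild-type library, a log2 ratio of -0.51. The bounds meet at 9.44 FPKM. The gene was spread over 3 structures that differ in which exons they hold. The short RefSeq transcript NM_001139516, which ends after exon 13, was at 2.98 FPKM (bounds 2.37 to 3.61) in the knockout and 5.56 FPKM (bounds 4.55 to 6.49) in the wild-type library. The second structure reaches exon 22, from exon 1 or from an exon in intron 1. It was at 1.16 FPKM (bounds 0.87 to 1.45) in the knockout and 3.01 FPKM (bounds 2.31 to 3.71) in the wild-type library. The knockout value was all NM_011249, which holds exons 1 to 22. In the wild-type library NM_011249 was at 1.45 FPKM (bounds 1.10 to 1.80), so its bounds overlap between the libraries. The rest, 1.56 FPKM (bounds 1.21 to 1.91), was in a wild-type model that starts in intron 1 and lacks exon 1. Models that start in intron 8 and hold exons 9 to 22 were at 3.79 FPKM (bounds 3.22 to 4.37) in the knockout and 3.16 FPKM (bounds 2.58 to 3.73) in the wild-type library. The last structure was the one not lower in the knockout library, and its bounds overlap; it made up 47.8% of the gene in the knockout and 26.9% in the wild-type library.

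The intron that marks these 5′-truncated models, chr2:157192074-157192937 with 864 nt, was assembled in both libraries and is in neither the RefSeq transcripts of the files nor GENCODE M21. Over exon 1 the level of Rbl1 was 4.14 FPKM in the knockout and 7.01 FPKM in the wild-type library (log2 ratio -0.64). From exon 2 on, the difference was larger at first and then narrowed along the gene. Over exons 2 to 8 the level of Rbl1 was 4.14 FPKM in the knockout and 8.57 FPKM in the wild-type library (log2 ratio -0.90). Over exons 9 to 13 it was 7.93 FPKM in the knockout and 11.7 FPKM in the wild-type library (-0.51), and over exons 14 to 21 it was 4.95 FPKM in the knockout and 6.17 FPKM in the wild-type library (-0.27). All 22 exons were lower in the knockout library, which follows from the levels of the structures given above.

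The short Rbl1 transcript reads on past exon 13, and its coding sequence ends after 15 further bases. The last 30 bases of exon 13 are in lower case and the run-on up to the stop codon in capitals, from a GENCODE M21 transcript of the gene at chr2:157175513-157175557 (minus strand, GRCm38).
Rbl1 exon 13 and run-on: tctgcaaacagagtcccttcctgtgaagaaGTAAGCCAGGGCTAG
The 250 bases before the Rbl1 start follow (RefSeq, GRCm38.p6, chr2:157204535-157204784, minus strand), because Rbl1 is the only one of the 5 genes with an entry in the promoter table (Ccnd3, Cdk4, Cdk6, Rbl1 and Rbl2) with a match to an E2F motif. The motifs searched on both strands were TTTCGCGC, TTTGGCGC, TTTCCCGC and TTTGCCGC, which cannot match at the same base of a strand, and the match is in capitals.
Rbl1 start: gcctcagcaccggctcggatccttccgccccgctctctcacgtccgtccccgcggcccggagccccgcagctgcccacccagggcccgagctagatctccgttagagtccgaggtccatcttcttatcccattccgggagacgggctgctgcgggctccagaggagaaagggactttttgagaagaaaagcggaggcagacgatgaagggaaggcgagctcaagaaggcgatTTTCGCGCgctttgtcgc
The match begins 18 bases before the start. A match to any of the 4 motifs is present in 611 of the 32851 promoters of the table, or 1.86%. The window holds 24 CpG dinucleotides, more than 88.0% of all promoters.

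Rbl2 (chr8:91070094-91123844, plus strand) encodes p130. Its gene sum was higher in the knockout library, while the only structure that spans the gene was lower there. The sum was 9.08 FPKM (bounds 7.75 to 10.4) in the knockout and 5.51 FPKM (bounds 4.97 to 6.05) in the wild-type library, a log2 ratio of 0.63. In the wild-type library all of it was in NM_011250, with 22 exons. In the knockout library NM_011250 was at 1.80 FPKM (bounds 1.47 to 2.13), a log2 ratio of -1.22 against its wild-type level. The file marks this transcript as without full read support in the knockout library and with it in the wild-type library. The other 7.28 FPKM (bounds 6.28 to 8.26), or 80.1% of the knockout level, lay in an assembled model of exons 18 to 22 that begins with 726 nt of intron 17. That model lacks the annotated start codon, which is in exon 1.

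By exon, Rbl2 was at 1.80 FPKM in the knockout and 5.51 FPKM in the wild-type library over exons 1 to 17, and at 9.08 FPKM in the knockout and 5.51 FPKM in the wild-type library over exons 18 to 21. Thus 17 of its exons were lower and 5 higher in the knockout library. Exon levels add up whole models, so these counts follow from the model levels and are not separate evidence. Averaged over all exon bases the level was 4.52 FPKM in the knockout and 5.51 FPKM in the wild-type library (log2 ratio -0.24). The direction for Rbl2 therefore depends on whether the truncated model is counted. The end of intron 17 that this model holds as exon is shown in capitals, followed by the first 20 bases of exon 18, from a GENCODE M21 transcript of the gene at chr8:91112478-91112537 (plus strand, GRCm38).
Rbl2 intron 17 and exon 18: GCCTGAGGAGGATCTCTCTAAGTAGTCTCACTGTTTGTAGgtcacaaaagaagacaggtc
At its 3′ end Rbl2 shares 346 exon bases with Aktip on the opposite strand. The Aktip entries of the files summed to 14.2 FPKM in the knockout and 15.6 FPKM in the wild-type library, and those that reach the shared bases were at 14.2 FPKM in the knockout and 6.44 FPKM in the wild-type library. The 346 bases are those of NM_011250 and lie in exon 22, so exons 18 to 21 hold none of them. Aktip reaches to chr8:91123499 and the knockout model of Rbl2 ends at chr8:91123555, so that model holds only a part of the shared bases. The part of Aktip reads in it was not tested.

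The ends of the transcripts were compared for the 5 members with a RefSeq transcript of 2500 nt or more, over the 1000 nt at each end. The 3′ ratio was at least 2-fold above the 5′ ratio for 1 of the 5, Rbl2, beside 14.1% of 7705 genes of that length; the opposite held for 0 of the 5, beside 2.01% of those genes. A 5′ level at least 2-fold lower in the knockout library was also listed for 1 of the 5, Rbl2, beside 10.7% of the long genes. At its 5′ end Rbl2 had 1.80 FPKM in the knockout and 5.51 FPKM in the wild-type library (log2 ratio -1.22), and at its 3′ end 6.98 FPKM in the knockout and 5.51 FPKM in the wild-type library (0.29). That gap of 1.51 between the ratios was larger than in 94.2% of the long genes. Rbl1 had the next largest gap, 0.77, larger than in 80.9% of them. It had 4.14 FPKM in the knockout and 8.20 FPKM in the wild-type library at the 5′ end, and 4.95 FPKM in the knockout and 5.22 FPKM in the wild-type library at the 3′ end. For Ccnd2 the gap was 0.25, and for Ccnd1 and Rb1, each in a single transcript, it was 0.0. End levels add up whole models, so these gaps follow from the model levels given above and are not separate evidence. Over all long genes the median log2 ratio was -0.16 at the 5′ end and 0.07 at the 3′ end, while the median of the gap within a gene was 0.02. RNA quality was not given in the labels, and its part in the Rbl1 and Rbl2 values was not tested.

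**Figure D4:**
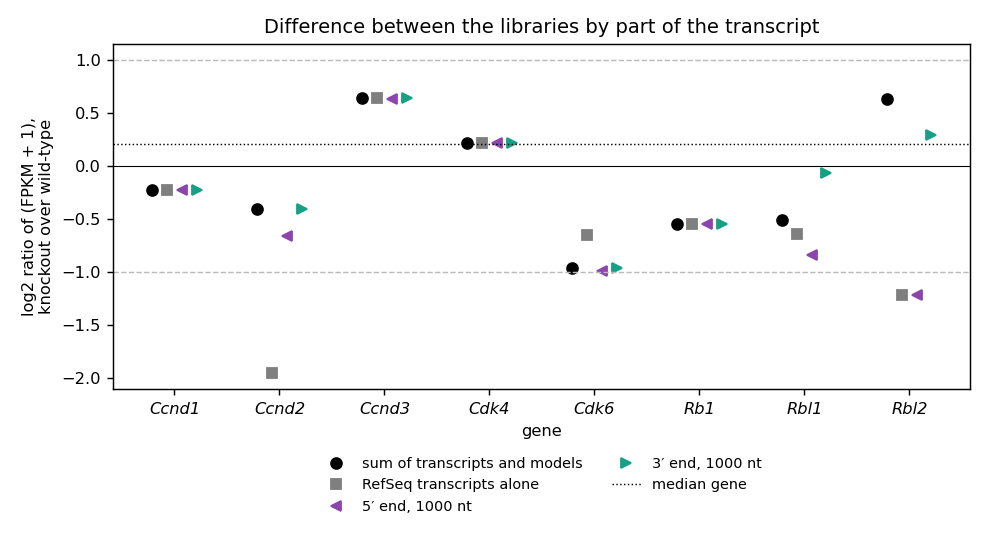
Log2 ratio of (FPKM + 1), knockout over wild-type library, of the 8 genes taken as the sum of RefSeq transcripts and assembled models (circles), RefSeq transcripts alone (squares), and the level over 1000 nt at the 5′ end (left-pointing triangles) and 3′ end (right-pointing triangles); the dotted line is the median gene at 0.21 and the dashed lines mark 2-fold. The markers coincide for Ccnd1, Ccnd3, Cdk4 and Rb1 and spread most for Ccnd2, where RefSeq transcripts alone give -1.95, and for Rbl2, where they give -1.22.

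Of 104 introns in the transcripts and models of the 8 genes, 8 were not in the RefSeq transcripts of the files, 6 of these were not in GENCODE M21 either, and 2 were assembled in both libraries. Those 2 are the 570-nt intron of Ccnd2 and the 864-nt intron of Rbl1 described above. No 100-base window of a member occurs in another member, a window having the length of a read. Rbl1 had no such window in any other gene and Rb1 had 0.176%.

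The genes around the switch were read from 8 lists of 66 genes in all, 65 of which could be compared, Rbl1 being in 1 of them as an E2F target. Of the 65, 4 were at least 2-fold higher in the knockout library, beside 7.69% of all genes compared, and 0 were at least 2-fold lower, beside 3.51%; their median log2 ratio was 0.04, where the median gene had 0.21. A share of 4 in 65 is near the background and is not a result about the lists. Among the genes named below, the summed bounds of the libraries overlap for Cdkn2c, Cdkn2d, Ccne1, Ccna2, Cdk7, Ccnh, Cdc37, E2f3 and Lin9.

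INK4 and CIP/KIP inhibitors, which bind CDK4 and CDK6 or the cyclin and kinase pair, were at least 2-fold different on the (FPKM + 1) scale in 0 of 7 cases. The median log2 ratio of the 4 INK4 genes was 0.40. Cdkn2d was at 13.1 FPKM in the knockout and 8.37 FPKM in the wild-type library, and Cdkn2c at 10.1 FPKM in the knockout and 6.85 FPKM in the wild-type library. Cdkn2a, the most abundant of them, was at 65.2 FPKM in the knockout and 52.2 FPKM in the wild-type library. These are sums over all transcripts of the gene and were not split by protein product. The bounds deposited for Cdkn2a, 50.8 to 60.8 FPKM in the knockout and 40.1 to 49.4 FPKM in the wild-type library, lie below its own values. Of the 3 CIP/KIP genes, Cdkn1a (p21) was at 8.58 FPKM in the knockout and 3.95 FPKM in the wild-type library, a log2 ratio of 0.95. Cdkn1b (p27), which restrains CDK2 and also helps cyclin D to pair with CDK4, was at 7.40 FPKM in the knockout and 12.5 FPKM in the wild-type library, with a log2 ratio of -0.68. At the 3′ end Cdkn1b had a log2 ratio of -0.08. Cdkn1c was at 28.4 FPKM in the knockout and 19.9 FPKM in the wild-type library.

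CDK2, which with cyclins E and A takes over RB phosphorylation, and the kinase that activates CDKs showed 0 of 8 genes past 2-fold. Cdk2 was at 70.8 FPKM in the knockout and 39.8 FPKM in the wild-type library, with a log2 ratio of 0.82 as a sum, 0.55 over exon bases, 0.14 at the 5′ end and 0.70 at the 3′ end. Ccne1 was at 8.23 FPKM in the knockout and 6.04 FPKM in the wild-type library, and Ccna2 at 44.4 FPKM in the knockout and 45.7 FPKM in the wild-type library, while Ccne2 was listed at 0 in both libraries. Cdk7, the activating kinase, was at 31.4 FPKM in the knockout and 38.5 FPKM in the wild-type library, a log2 ratio of -0.29 as a sum and 0.30 over exon bases. Its partner Ccnh was at 62.6 FPKM in the knockout and 45.2 FPKM in the wild-type library. The chaperone gene Cdc37, whose product helps to fold CDK4 and CDK6, was at 117.3 FPKM in the knockout and 119.9 FPKM in the wild-type library.

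The E2F and DP factors, among which are those that RB proteins bind, had a median log2 ratio of 0.01 over 10 genes, with 0 past 2-fold. E2f4, the usual partner of p107 and p130, was at 29.3 FPKM in the knockout and 17.9 FPKM in the wild-type library, a log2 ratio of 0.68. Tfdp2 was at 17.7 FPKM in the knockout and 10.2 FPKM in the wild-type library as a sum (log2 ratio 0.74), and 0.03 when averaged over exon bases. E2f3, an activator held by RB, was at 5.52 FPKM in the knockout and 7.86 FPKM in the wild-type library. The MuvB and DREAM genes, most of them for subunits of the complex that p130 and p107 join, had a median of -0.11 over 6 genes and 0 past 2-fold. Among them Lin54, the DNA-binding subunit, was at 4.02 FPKM in the knockout and 6.00 FPKM in the wild-type library. Lin37 was at 30.2 FPKM in the knockout and 24.2 FPKM in the wild-type library, and Lin9 at 5.05 FPKM in the knockout and 6.15 FPKM in the wild-type library.

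Of the 9 genes of cyclin D and p27 degradation, 3 were at least 2-fold higher in the knockout library, beside 7.69% of all genes compared, and over all lists 1 gene was when levels were averaged over exon bases. Fbxo31, a ubiquitin ligase subunit, was at 53.3 FPKM in the knockout and 17.3 FPKM in the wild-type library (log2 ratio 1.57), and Gsk3b, a kinase that marks cyclin D1 for export and breakdown, at 32.3 FPKM in the knockout and 15.1 FPKM in the wild-type library (1.05). Averaged over RefSeq exon bases their log2 ratios were 0.39 for Fbxo31 and -0.07 for Gsk3b. The other, Fbxo4, named after its value was seen, was at 1.84 FPKM in the knockout library and listed at 0 in the wild-type library. Fzr1 was at 39.2 FPKM in the knockout and 29.3 FPKM in the wild-type library.

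The 28 E2F target genes had a median log2 ratio of -0.06 and a relative one of -0.27, with 10 above and 18 below the median gene and 1 past 2-fold. That 1 was Tyms, thymidylate synthase, at 27.6 FPKM in the knockout and 11.5 FPKM in the wild-type library, a log2 ratio of 1.19 that was 0.33 at the exon level. Mcm2, a subunit of the replicative helicase, was at 143.1 FPKM in the knockout and 86.6 FPKM in the wild-type library as a sum, with a log2 ratio of 0.72, and 0.04 over exon bases. Rfc3, a subunit of the clamp loader, was at 56.2 FPKM in the knockout and 35.8 FPKM in the wild-type library, a log2 ratio of 0.63 by either measure.

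**Figure D5:**
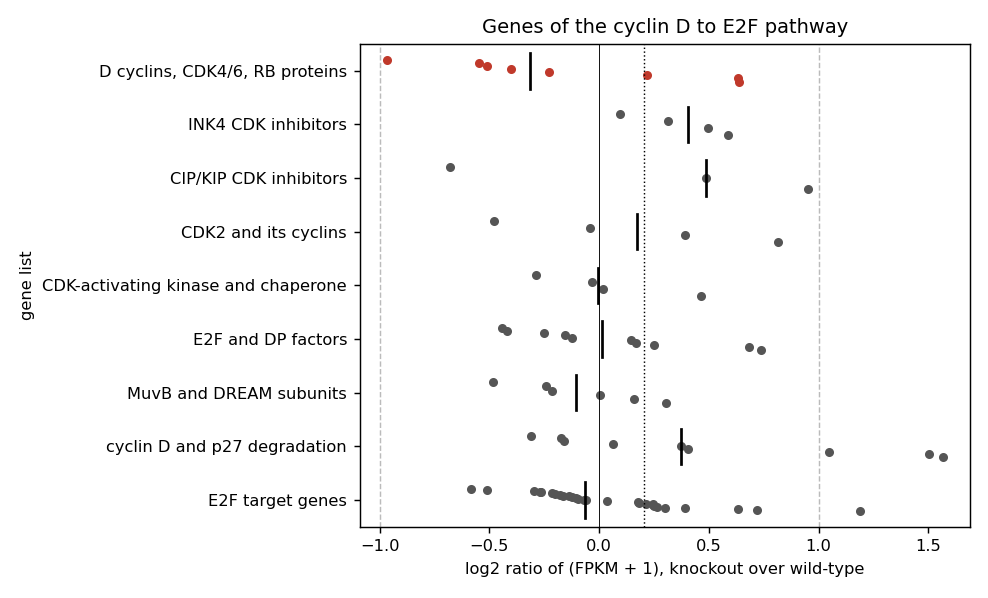
Log2 ratio of (FPKM + 1), knockout over wild-type library, of each compared gene (points) of the D cyclins, CDK4/6 and RB proteins (red) and of the 8 surrounding lists (grey), with the median of each list as a bar; the dotted line is the median gene at 0.21 and the dashed lines mark 2-fold. No point lies past 2-fold on the lower side, and the 4 past it on the higher side are Fbxo31, Fbxo4, Gsk3b and Tyms.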

How the data were processed

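Poly(A) RNA-seq values of 1 Dnmt3l knockout and 1 wild-type library, grouped by the genotype in the labels, were used as the authors deposited them: per transcript an FPKM value, a lower and an upper bound (which for some genes do not enclose the value), and a coverage, for 30073 RefSeq transcripts and 20415 (knockout) or 20579 (wild-type) assembled models. CASAVA 1.9, TopHat2 2.0.8, Cufflinks 2.1.1 and mm10 are named, per the submitters' processing notes; their settings are not given in the sources used here. The deposited bounds come with each library's estimate, and counts are not in the files, so no interval from counts can be given.

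A gene's level was the sum over its RefSeq transcripts and the assembled models of 300 nt or more that shared most exon bases with it on the same strand; models without a strand joined with a share of 0.5 or more. RefSeq identifiers were named by accession (28981), the gene names in the files, or GENCODE M21, and 3 stayed unnamed. Ratios used a pseudocount of 1 and genes of 1 FPKM or more in at least 1 library. Exon and end levels add up the FPKM of each whole model that covers a RefSeq exon base, and are not read coverage; ends were 1000 nt, and length was adjusted by the median of 20 bins. Sequences are from GENCODE M21 transcripts and a RefSeq promoter table; Ccnd1, Ccnd2 and Rb1 had no entry in the latter. Named pathway genes were up to 3 per list with the largest absolute ratio among those above 0 in both libraries and reaching 5 FPKM in at least 1. The members and lists were chosen with earlier results of these data known. The computation was tested on simulated data. Python 3.11.15, pandas 2.3.3, numpy 2.4.6 and matplotlib 3.10.9 were used. The alternatives were other pseudocounts, filters, scalings, transcript sets, the coverage and the exon level.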

Additional observations from a re-analysis of the deposited data

How the results depend on the processing

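No paired analysis was possible because there was 1 library per genotype; for the same reason none could be left out. The count of members at least 2-fold higher in the knockout library was 0, and 2 at a threshold of 1.5-fold. The count at least 2-fold lower was 0; it was 1 with a pseudocount of 0.1, after centring on the median gene, with upper-quartile scaling, when the total without its 50 top genes set the scale, with the coverage attribute, after removal of the length medians and at 1.5-fold, and 2 with RefSeq transcripts alone or the most abundant RefSeq transcript. Of the pathway genes, 4 were at least 2-fold higher as deposited, 1 with a pseudocount of 5 or at the exon level, 2 after centring, upper-quartile or total scaling, and 8 with the most abundant RefSeq transcript; 0 were lower as deposited, and 2 with RefSeq transcripts alone or the most abundant of them. With RefSeq transcripts alone the log2 ratio was -1.95 for Ccnd2 and -1.22 for Rbl2, and at the exon level it was -0.24 for Rbl2, because the assembled models then count not at all or only over the exons they cover. Cdk4 had -0.08 with total scaling and -0.20 after the length medians were removed. Ccnd1, Ccnd2, Cdk6, Rb1 and Rbl1 were lower and Ccnd3 higher in the knockout library under every alternative that gave them a value; a filter of 10 FPKM left 6 of the 8 members. Low levels limit what the Cdk6 and Rbl2 models can show.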
